A study of Homo sapiens with 9 samples.

Results

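The genes examined here encode the subunits, activators and assembly chaperones of the proteasome. They were taken by symbol: every protein-coding gene named PSMA, PSMB, PSMC, PSMD, PSME, PSMF or PSMG followed by a number, which gave 48 of 19737 protein-coding genes and of 57500 genes in all. Of these, 46 passed the filter on low counts and were tested among 16672 genes. RNA was sequenced from the human line BJAB, an established line of B cells from a Burkitt lymphoma, as its labels have it. TACI short cells are BJAB cells given the short isoform of TACI, TACI long cells are BJAB cells given the long isoform, and control cells are the parental BJAB line; there were 3 libraries of each group, and no group was treated further. The sample titles describe stable transfection and the study's design text transduction, and no promoter, vector control or number of clones is given in the sources used here. TACI, encoded by TNFRSF13B, is a B-cell receptor for the cytokines BAFF and APRIL.

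The proteasome is a barrel-shaped protease that degrades proteins tagged with ubiquitin. Its 20S core is built of outer alpha rings and inner beta rings, the beta rings hold the proteolytic sites, and the 19S regulatory particle binds, unfolds and feeds in the substrate with a ring of ATPases. In cells of the immune system, and in other cells exposed to interferon gamma, the constitutive catalytic subunits encoded by PSMB5, PSMB6 and PSMB7 can be replaced by PSMB8, PSMB9 and PSMB10, which forms the immunoproteasome, and the activator PA28, encoded by PSME1 and PSME2, can take the place of the 19S particle. The immunoproteasome is known for making peptides that fit MHC class I molecules, and B cells express it without stimulation.

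The introduced gene was checked first. TNFRSF13B had 2964, 2965 and 2655 CPM (a count scaled to the total of its library) in TACI short cells, 691, 704 and 738 CPM in TACI long cells, and 28.8, 15.2 and 14.6 CPM in control cells. The groups did not overlap, and since a gene count does not separate isoforms, isoform and amount differ together between the TACI lines and their effects cannot be told apart. Library totals lay between 40322136 and 50079203 counts. TACI short replicates 2 and 3 had a count in 32882 and 32209 genes, and the other 7 libraries in 24307 to 25938. Those libraries also held more RNA of a list of 12 myeloid markers: the summed level was 28.9, 129 and 125 CPM in TACI short replicates 1, 2 and 3, 15.6 to 29.8 CPM in TACI long and 11.8 to 22.4 CPM in control libraries. CSF1R, a receptor of macrophages, was the highest of them, at 20.2, 57.8 and 56.7 CPM in the TACI short libraries; C1QB was at 0 in every group, C1QA in TACI long and control cells and FCGR3A in control cells. The 6 B-cell markers were all detected and summed to 2963 to 3098 CPM in TACI short, 3275 to 3313 CPM in TACI long and 3681 to 3807 CPM in control cells. Markers of T and NK cells summed to at most 4.04 CPM in any library. Markers of epithelial cells and fibroblasts summed to 80.7 to 89.2 CPM in TACI short, 113 to 120 CPM in TACI long and 98.1 to 100.2 CPM in control cells. EPCAM, of epithelial cells, made up most of each sum. The collagen genes COL1A1 and COL1A2 of fibroblasts were higher in the same TACI short libraries as the myeloid markers. COL1A1 had 3.24, 10.99 and 10.2 CPM in TACI short replicates 1, 2 and 3, at most 2.55 CPM in TACI long and at most 2.62 CPM in control libraries. COL1A2 had 0.653, 3.99 and 4.11 CPM in those TACI short libraries, at most 0.993 CPM in TACI long and at most 1.44 CPM in control libraries. The part of these transcripts in the changes of proteasome genes was not tested, and values without TACI short replicates 2 and 3 are given where they bear on a result. In bulk RNA, fewer cells of a type and less RNA per cell cannot be told apart, and nothing says that the replicates were separate cultures, so that the p-values cover the spread among these libraries alone, which may be technical.

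In TACI short cells the RNA of nearly the whole constitutive proteasome was lower than in control cells, while PSMB8, PSMB9 and PSME1 of the immunoproteasome were higher. Of the 46 tested genes, 39 were lower and 3 were higher at an adjusted p under 0.05 (quasi-likelihood test of edgeR, Benjamini-Hochberg adjusted over all tested genes), where 31.1% of all tested genes were lower, 31.5% were higher and 62.6% were called in either direction. PSMA1, PSMB10, PSMD10 and PSMG2 were not called. In CPM, 31 of the 46 genes were lower without overlap of the groups and 4 were higher, against 24.4% and 42.1% of all tested genes. The median log2 fold change was −0.41 over the proteasome genes and 0.03 over all tested genes, and single genes ranged from −0.78 to 0.71. Together the 48 genes made up 0.631 to 0.662% of all counts in TACI short libraries, 0.774 to 0.782% in TACI long libraries and 0.772 to 0.803% in control libraries.

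Fold changes were fitted with TMM factors, which correct each library for its composition and were 1.03 to 1.095 in TACI short libraries, 0.965 to 0.980 in TACI long and 0.962 to 0.979 in control libraries. A fitted log2 change of TACI short cells is therefore 0.13 lower than a ratio of the CPM printed here, against either other group. With library totals alone, the median over all genes rose by 0.13 on the log2 scale, 6862 genes were called higher and 3779 lower, in place of 5256 and 5179, and 33 proteasome genes were lower and 4 higher. The distance between the median of the proteasome genes and that of all genes was −0.43 under each of 4 scalings. A scaling shifts all genes of a comparison by nearly the same amount, so this distance could not differ between them.

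PSMB9, the immunoproteasome subunit that takes the place of the caspase-like PSMB6, had 72.5, 71.0 and 73.9 CPM in TACI short cells, 37.6, 37.4 and 40.0 CPM in TACI long cells, and 43.0, 37.5 and 40.9 CPM in control cells. Every TACI short library lay above every other library, while TACI long and control libraries overlapped. PSMB9 rose 1.64-fold against control, with a log2 fold change of 0.71 ± 0.05 (SE, adjusted p = 7.93e-11), the largest rise among the proteasome genes. PSMB8, which replaces the chymotrypsin-like subunit PSMB5, had 116, 107 and 114 CPM in TACI short cells, 78.1, 76.5 and 75.5 CPM in TACI long cells, and 79.7, 77.1 and 77.4 CPM in control cells. Again only TACI long and control libraries overlapped. PSMB8 rose 1.32-fold in TACI short against control cells (log2 fold change 0.40 ± 0.05, adjusted p = 1.61e-07). With TACI short replicate 1 as the sole TACI short library, assumed to vary like the other groups, the log2 fold changes were 0.75 for PSMB9 and 0.48 for PSMB8 (adjusted p = 2.09e-10 and 6.78e-10).

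PSMB10, which replaces the trypsin-like subunit PSMB7, did not follow them. It had 41.8, 43.7 and 39.2 CPM in TACI short cells, 39.2, 40.5 and 41.9 CPM in TACI long cells, and 38.6, 37.3 and 40.7 CPM in control cells. All groups overlapped. Its log2 fold change was −0.03 ± 0.05 in TACI short against control cells (adjusted p = 0.579), and its sign depended on the scaling, since library totals alone gave 0.10. The fitted change lay between −0.14 and 0.07 at 2 standard errors. Of the PSMB10 exons, 34.8% of the bases are shared with another annotated gene at 1.53 CPM on the same strand.

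PSMB8 and PSMB9 lie side by side in the MHC class II region on chromosome 6 (hg38, 32840717 to 32844703 on the minus strand and 32844136 to 32859585 on the plus strand). Their annotated spans overlap on opposite strands, and PSMB8 shares 21.2% and PSMB9 5.66% of its exonic bases with the antisense gene PSMB8-AS1, which averaged 7.73 CPM over all libraries. The library kit does not keep the strand, so reads in the shared bases cannot be assigned. The RefSeq start of PSMB9 lies 488 bases from the nearer start of TAP1, the gene of a peptide transporter that carries proteasome products into the endoplasmic reticulum, and the genes run in opposite directions. Another RefSeq start of TAP1 lies 1431 bases from that of PSMB9. PSMB10 lies on chromosome 16, at 67934502 to 67937087 on the minus strand.

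The 250 bases before the RefSeq starts (GRCh38.p14) are shown for the immunoproteasome genes PSMB9 and PSMB8, which rose, for PSMB10 and PSME2, which did not, and for PSMB5, whose product PSMB8 replaces. Each runs 5′ to 3′ in the direction of its gene. Capitals mark a match to GAAANNGAAA (a core of the element bound by interferon regulatory factors, IRF) in PSMB10 and PSME2, to TTCNNNGAA (the gamma-activated sequence, GAS) in PSMB8, and to CCAAT in PSMB5.
PSMB9, chr6:32853942-32854191, plus strand: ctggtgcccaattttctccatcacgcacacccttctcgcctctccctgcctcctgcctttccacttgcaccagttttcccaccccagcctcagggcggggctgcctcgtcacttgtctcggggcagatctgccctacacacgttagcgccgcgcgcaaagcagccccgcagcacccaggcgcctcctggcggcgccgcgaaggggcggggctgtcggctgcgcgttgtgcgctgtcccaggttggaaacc
PSMB8, upper start, chr6:32844680-32844929, minus strand: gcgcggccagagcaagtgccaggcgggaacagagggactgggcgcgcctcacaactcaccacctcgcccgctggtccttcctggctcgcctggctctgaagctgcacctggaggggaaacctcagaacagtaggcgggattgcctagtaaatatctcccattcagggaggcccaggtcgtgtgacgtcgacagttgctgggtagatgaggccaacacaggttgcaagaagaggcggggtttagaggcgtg
PSMB8, lower start, chr6:32844048-32844297, minus strand: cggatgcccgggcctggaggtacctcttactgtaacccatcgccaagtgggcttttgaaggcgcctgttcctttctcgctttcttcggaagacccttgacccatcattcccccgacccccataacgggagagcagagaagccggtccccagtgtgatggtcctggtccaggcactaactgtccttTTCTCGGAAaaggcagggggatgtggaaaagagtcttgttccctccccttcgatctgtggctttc
PSMB10, chr16:67936851-67937100, minus strand: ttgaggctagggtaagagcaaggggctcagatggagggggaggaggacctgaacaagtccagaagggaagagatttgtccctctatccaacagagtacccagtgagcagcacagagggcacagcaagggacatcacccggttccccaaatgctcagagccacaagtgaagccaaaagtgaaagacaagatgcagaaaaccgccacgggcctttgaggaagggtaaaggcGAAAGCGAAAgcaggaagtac
PSME2, chr14:24146611-24146860, minus strand: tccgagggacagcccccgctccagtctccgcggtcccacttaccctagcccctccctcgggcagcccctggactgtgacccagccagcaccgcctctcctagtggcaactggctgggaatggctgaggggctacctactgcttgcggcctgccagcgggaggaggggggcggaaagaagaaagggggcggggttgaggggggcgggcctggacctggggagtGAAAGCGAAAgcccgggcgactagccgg
PSMB5, upper start, chr14:23035221-23035470, minus strand: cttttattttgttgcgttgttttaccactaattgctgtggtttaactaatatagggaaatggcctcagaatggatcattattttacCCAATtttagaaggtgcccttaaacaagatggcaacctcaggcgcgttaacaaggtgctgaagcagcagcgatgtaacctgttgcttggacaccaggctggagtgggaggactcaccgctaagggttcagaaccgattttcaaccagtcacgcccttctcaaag
The window shown for PSMB9 covers 250 of the 488 bases to the nearer start of TAP1, and matches in the rest are not given here. This window held no match to the IRF or GAS letters, nor to GGGNNNNNCC, a loose form of the NF-kB site, on either strand. It held a CCAAT box, GGGCGG, the GC box, at 2 places, and the letters TGANNNNGC. The IRF letters stood 21 to 12 bases before the start of PSMB10 and 28 to 19 bases before that of PSME2, both of which were not higher in TACI short cells, and the GAS letters 65 to 57 bases before the lower start of PSMB8. They also stood at positions −158 to −150 and −15 to −7 before the lower start of PSMB5, which fell and whose lower window is not shown. Searched on both strands with overlapping matches counted, the IRF letters were in 5 of 51 windows of 42 proteasome genes and in 3.02% of 35116 windows of all genes. The GAS letters were in 7 of 51 windows against 6.57% of all windows, the NF-kB letters in 32 of 51 against 54.4%, and CCAAT in 19 of 51 against 32.0%. GGGCGG was in 31 of 51 windows against 42.6%, and TGANNNNGC, the core of the antioxidant response element, in 29 of 51 against 35.2%. Such matches describe letters in a window and show no binding.

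**Figure D1:**
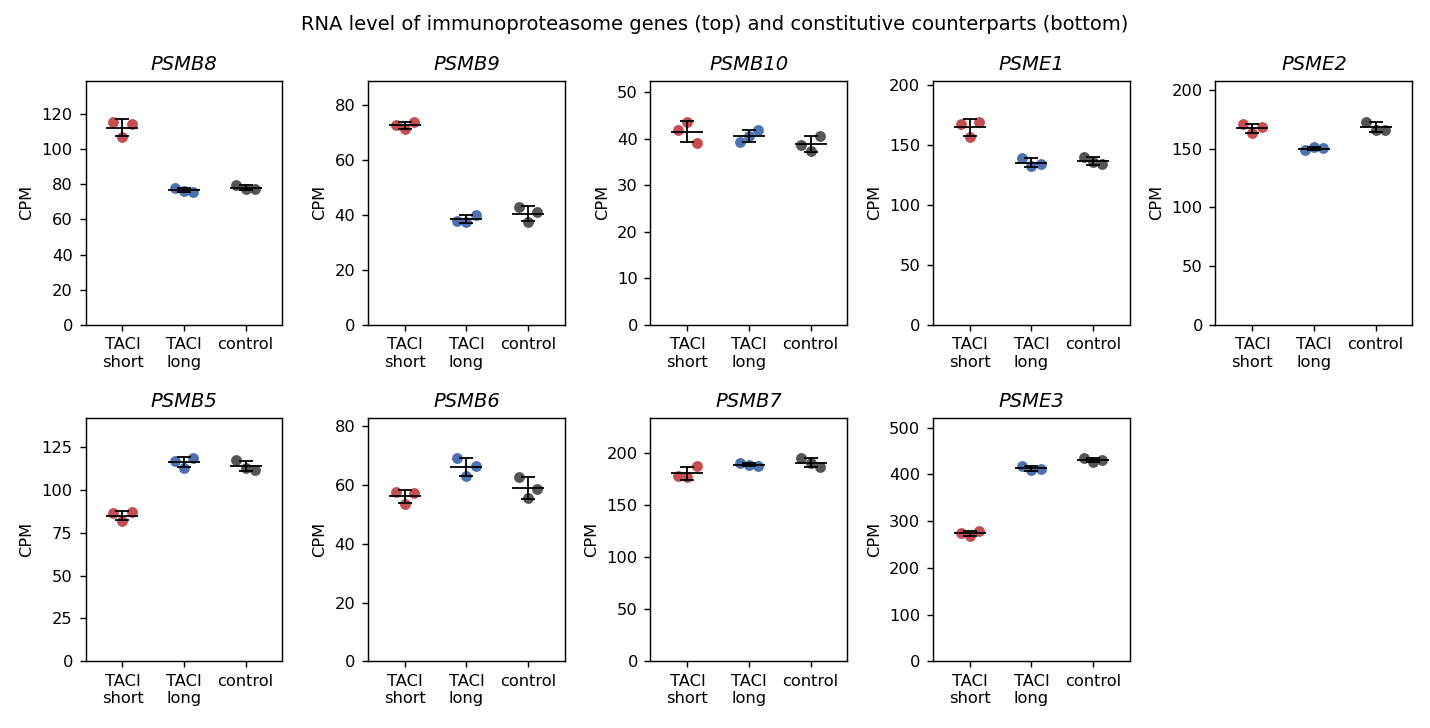
RNA level in CPM (vertical axis, from 0) of 5 immunoproteasome genes in the upper row and of PSMB5, PSMB6, PSMB7 and PSME3 below them, for TACI short, TACI long and control cells. Points are libraries, bars the mean and SD of 3; PSMB8 and PSMB9 were highest and PSMB5 and PSME3 lowest in TACI short cells, while PSMB10 overlapped in all groups.

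PSME1 and PSME2 encode the alpha and beta subunits of PA28, the activator induced with the immunoproteasome, and lie 4394 bases apart on chromosome 14. PSME1 had 168, 157 and 170 CPM in TACI short cells, 139, 133 and 134 CPM in TACI long cells, and 140, 136 and 134 CPM in control cells. The TACI short libraries lay above the others, and PSME1 rose 1.10-fold against control (log2 fold change 0.14 ± 0.05, adjusted p = 0.0119). That call is slight: the adjusted p was 0.125 without control replicate 2, 0.138 without control replicate 3, 0.0531 without TACI long replicate 1, 0.0605 without TACI long replicate 3 and 0.0549 without the filter on low counts. PSME2 had 170, 163 and 168 CPM in TACI short cells, 148, 151 and 150 CPM in TACI long cells, and 173, 166 and 166 CPM in control cells. TACI short and control libraries overlapped, and the log2 fold change between them was −0.14 ± 0.04 (adjusted p = 0.00972). This fall rested on the scaling, with −0.01 under library totals alone (adjusted p = 0.831) and −0.05 under upper-quartile factors (adjusted p = 0.148), and was not called without control replicate 1 (adjusted p = 0.0592) or without TACI short replicates 2 and 3 (adjusted p = 0.199).

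The constitutive counterparts were lower in TACI short cells. PSMB5, the chymotrypsin-like subunit, had 86.1, 81.7 and 86.9 CPM in TACI short cells, 117, 113 and 118 CPM in TACI long cells, and 117, 113 and 111 CPM in control cells. No TACI short library reached the others, and PSMB5 fell 1.46-fold against control (log2 fold change −0.55 ± 0.05, adjusted p = 6.75e-10). PSMB6, the caspase-like subunit, had 57.6, 53.6 and 57.3 CPM in TACI short cells, 69.1, 63.0 and 66.5 CPM in TACI long cells, and 62.9, 55.6 and 58.7 CPM in control cells. TACI short and control libraries overlapped in CPM, and the fitted log2 fold change was −0.20 ± 0.06 (adjusted p = 0.00632), a call lost with library totals alone (−0.07, adjusted p = 0.207), with upper-quartile factors (−0.12, adjusted p = 0.0679) and without TACI short replicates 2 and 3 (−0.13, adjusted p = 0.117). PSMB7, the trypsin-like subunit, had 178, 176 and 188 CPM in TACI short cells, 190, 189 and 187 CPM in TACI long cells, and 195, 190 and 187 CPM in control cells. These groups overlapped too, with a fitted log2 fold change of −0.21 ± 0.04 against control (adjusted p = 0.000201).

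Set against its counterpart within each library, a ratio that no scaling factor can move, the RNA of PSMB8 and PSMB9 weighed more in TACI short cells. Per kilobase of exon, PSMB8 stood at 1.18, 1.15 and 1.16 times PSMB5 in TACI short cells, 0.588, 0.597 and 0.562 times in TACI long cells, and 0.599, 0.602 and 0.612 times in control cells. PSMB8 counts per kilobase thus exceeded those of PSMB5 in TACI short cells alone. The log2 ratio of PSMB8 to PSMB5 was higher there by 0.95 ± 0.01 (SE, 1.93-fold) than in control cells. It was higher by 1.00 ± 0.03 than in TACI long cells. PSMB9 over PSMB6 was 0.594, 0.624 and 0.608 in TACI short cells, 0.257, 0.280 and 0.283 in TACI long cells, and 0.322, 0.318 and 0.328 in control cells. Here all 3 groups were separate: TACI short cells exceeded control cells 1.89-fold, and TACI long cells lay 0.24 ± 0.05 below control on the log2 scale. PSMB10 over PSMB7 averaged 0.222 ± 0.019 in TACI short cells, 0.207 ± 0.009 in TACI long cells and 0.197 ± 0.011 in control cells (SD, n = 3 each). Its groups overlapped, and the log2 difference between TACI short and control was 0.17 ± 0.09, with p = 0.2 in an exact two-sided permutation test.

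PSME2 over PSME3, the gene of the nuclear PA28 gamma, was 0.891, 0.875 and 0.868 in TACI short cells, 0.510, 0.531 and 0.526 in TACI long cells, and 0.572, 0.559 and 0.553 in control cells. PSME3 encodes another activator, not a constitutive form that PSME2 replaces. The TACI short ratio was 1.56-fold that of control, with every TACI short library above the rest. That difference lay in PSME3, which averaged 274 CPM in TACI short and 430.5 CPM in control cells. PSME2 averaged 167 and 168 CPM in those groups and was not higher. All 9 ratio comparisons among PSMB8, PSMB9 and PSME2 had groups without overlap and p = 0.1, the smallest that an exact two-sided permutation test of 3 against 3 libraries can give, or 0.133 after adjustment over 12 ratio tests, so none can pass a threshold of 0.05.

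**Figure D2:**
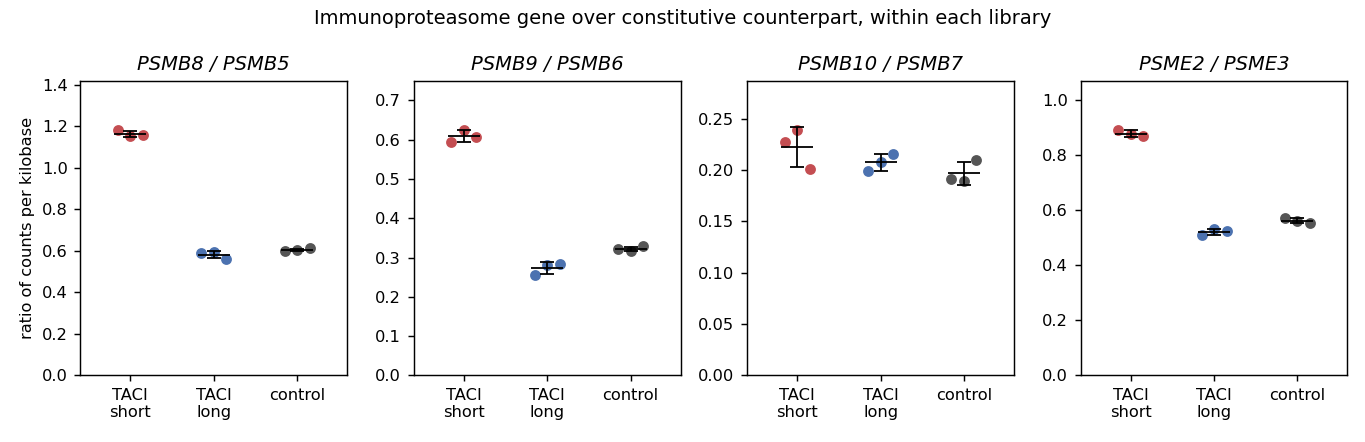
Ratio of counts per kilobase of exon (vertical axis, from 0) in TACI short, TACI long and control libraries. PSMB8, PSMB9 and PSMB10 are set over their constitutive counterparts PSMB5, PSMB6 and PSMB7, and PSME2 over PSME3, the gene of another activator. Points are libraries, bars the mean and SD of 3; the ratios of PSMB8, PSMB9 and PSME2 were highest in TACI short cells, and that of PSMB10 overlapped between groups.

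Relative to 1000 counts of the 31 constitutive subunits of the 20S and 19S particles, TACI short cells held 22.1 ± 0.43 counts of PSMB8, against 12.4 ± 0.16 in TACI long cells and 12.5 ± 0.06 in control cells (SD, n = 3 each). PSMB9 had 14.3 ± 0.14 counts on this scale in TACI short cells, 6.18 ± 0.23 in TACI long cells and 6.45 ± 0.31 in control cells. PSMB10 had 8.19 ± 0.67 counts in TACI short cells, 6.54 ± 0.24 in TACI long cells and 6.20 ± 0.29 in control cells, so against the sum of constitutive subunits, though not against PSMB7, its TACI short libraries also lay above the rest. PSME1 and PSME2 stood at 32.4 ± 0.49 and 32.9 ± 0.48 counts in TACI short cells, 21.8 ± 0.44 and 24.2 ± 0.35 in TACI long cells, and 21.8 ± 0.26 and 26.8 ± 0.14 in control cells. The sum of constitutive subunits was itself lower in TACI short cells (mean 5082 CPM, against 6269 CPM in control cells), so a gene can stand higher on this scale without a rise of its own. PSMB10 was not called against control cells, and PSME2 was called lower, a call that rested on the scaling.

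The constitutive subunits were lower in TACI short cells as a body. Of the 31 genes of the 20S core and 19S particle, 30 fell against control and PSMA1 was not called, with a median log2 fold change of −0.42. Of all tested genes, 31.1% were lower. In CPM, 25 of the 31 were lower without overlap of the groups, against 24.4% of all tested genes. Their summed level was 5082 ± 141 CPM in TACI short cells, 6203 ± 37 CPM in TACI long cells and 6269 ± 142 CPM in control cells (SD, n = 3 each). The 5 immunoproteasome and PA28 genes summed to 558 ± 15 CPM in TACI short cells, 441 ± 2 CPM in TACI long cells and 462 ± 11 CPM in control cells.

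In the alpha ring, which gates the entry to the core, 6 of 7 genes fell, against 31.1% of all tested genes. PSMA7 had 307, 280 and 302 CPM in TACI short cells, 470, 451 and 481 CPM in TACI long cells, and 409, 397 and 412 CPM in control cells. It was the alpha subunit with the largest fall against control (log2 fold change −0.58 ± 0.05, adjusted p = 8.23e-10). PSMA1 had 120, 114 and 120 CPM in TACI short cells, 104, 103 and 98.1 CPM in TACI long cells, and 116, 111 and 109 CPM in control cells, with overlap between TACI short and control (log2 fold change −0.05 ± 0.05, adjusted p = 0.369; 0.08 with library totals alone). The 4 beta subunits without a catalytic site, PSMB1 to PSMB4, fell 1.24- to 1.35-fold. Across the 20S core, 13 of 14 constitutive genes were lower, beside the same 31.1% of all tested genes.

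All 17 genes of the 19S particle were lower in TACI short cells than in control cells, against 31.1% of all tested genes. Of these, 15 were lower without overlap in CPM, against 24.4% of all tested genes. The 6 ATPases, whose ring unfolds the substrate, had a median log2 fold change of −0.52, and the 11 subunits without ATPase activity −0.44. PSMC3, an ATPase, had 143, 136 and 143 CPM in TACI short cells, 233, 233 and 229 CPM in TACI long cells, and 204, 194 and 202 CPM in control cells. Its libraries were separate in all 3 groups, and it fell 1.55-fold against control (log2 fold change −0.63 ± 0.04, adjusted p = 2.24e-11). PSMC4, another ATPase, fell by 0.62 ± 0.05 on the log2 scale (adjusted p = 5.69e-11), and its groups did not overlap either. PSMD2, a scaffold subunit with docking sites for ubiquitin-like domains, had 405, 392 and 404 CPM in TACI short cells, 577, 579 and 573 CPM in TACI long cells, and 554, 548 and 554 CPM in control cells. TACI short libraries lay far below the rest, with a log2 fold change of −0.59 ± 0.04 against control (adjusted p = 2.36e-11). PSMD12, a structural subunit of the lid, fell 1.54-fold (−0.62 ± 0.04, adjusted p = 5.15e-12). PSMD14, the deubiquitinase of the lid, had the smallest of these falls: its groups overlapped, and its log2 fold change of −0.15 ± 0.04 (adjusted p = 0.00449) was −0.02 with library totals alone (adjusted p = 0.540).

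Among the other activators, PSME3 had 275, 268 and 279 CPM in TACI short cells, 418, 409 and 411 CPM in TACI long cells, and 434, 426 and 432 CPM in control cells. The TACI short libraries lay well below both other groups, and PSME3 had the largest fall of all proteasome genes against control, 1.72-fold (log2 fold change −0.78 ± 0.04, adjusted p = 2.14e-13). PSME4 encodes the activator PA200, which acts on histones. It had 151, 156 and 147 CPM in TACI short cells, 248, 264 and 254 CPM in TACI long cells, and 202, 217 and 208 CPM in control cells. The 3 groups were separate, TACI short cells 1.51-fold below control (−0.59 ± 0.04, adjusted p = 1.38e-11) and TACI long cells 1.22-fold above it (0.29 ± 0.04, adjusted p = 2.16e-06). PSMF1, which encodes the inhibitor PI31, overlapped between TACI short and control libraries in CPM and fell by 0.21 ± 0.05 on the log2 scale in the fit (adjusted p = 0.000530). The call was lost with library totals alone (−0.08, adjusted p = 0.0572) and without TACI short replicates 2 and 3 (−0.11, adjusted p = 0.0510).

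**Figure D3:**
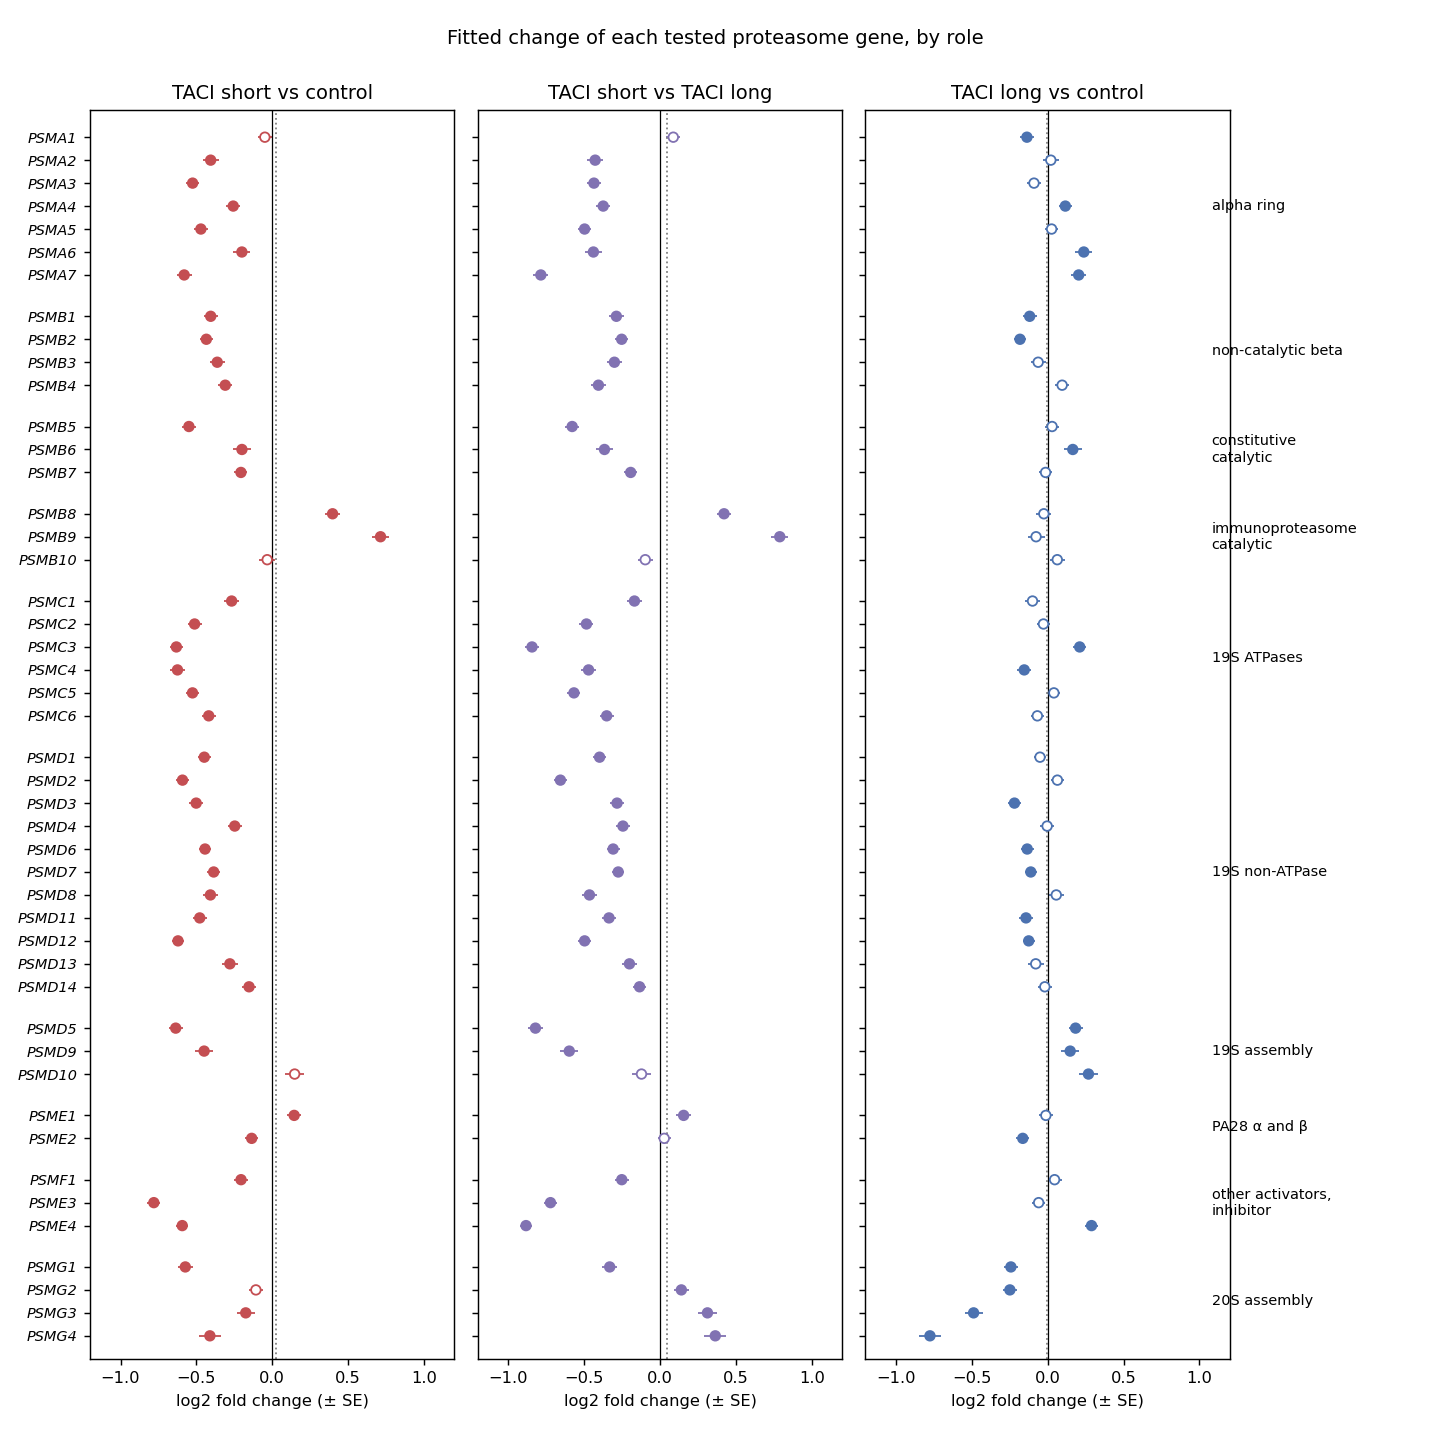
Fitted log2 fold change with its SE (horizontal axis) of each of the 46 tested proteasome genes, in rows by role, for TACI short vs control, TACI short vs TACI long and TACI long vs control. Filled points were called at an adjusted p under 0.05, open points were not, and the dotted line is the median over all tested genes; constitutive subunits lie left of it in the first 2 panels, except PSMA1 in the second, and PSMB8 and PSMB9 right of it.

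The chaperones that put the proteasome together did not share a direction. Of the 19S chaperones, which hold pairs of ATPases during assembly, PSMD5 had 28.6, 28.1 and 29.4 CPM in TACI short cells, 47.1, 46.4 and 45.5 CPM in TACI long cells, and 40.8, 40.9 and 40.8 CPM in control cells. It fell 1.55-fold in TACI short cells (log2 fold change −0.64 ± 0.05, adjusted p = 4.63e-11) and was 0.18 ± 0.05 higher in TACI long cells (adjusted p = 0.00170), with no overlap in either comparison. PSMD9 did likewise, at −0.45 ± 0.06 in TACI short cells (adjusted p = 8.86e-07) and 0.15 ± 0.06 in TACI long cells (adjusted p = 0.0370). PSMD10, also known as gankyrin, had 56.0, 47.5 and 51.9 CPM in TACI short cells, 53.0, 51.5 and 50.3 CPM in TACI long cells, and 44.5, 42.2 and 41.9 CPM in control cells. Both TACI lines lay above control in CPM, but the fit called only TACI long cells, at 0.27 ± 0.06 (adjusted p = 0.00222), with 0.15 ± 0.06 in TACI short cells (adjusted p = 0.0580). TACI short cells were called higher with library totals alone (0.27, adjusted p = 0.000262) and with the replicate number as a block (0.14, adjusted p = 0.0163). They were also called without TACI short replicate 2 (0.23, adjusted p = 0.000773) and without TACI short replicates 2 and 3 (0.29, adjusted p = 4.20e-05).

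The 20S chaperones PSMG1 to PSMG4 build the alpha ring in heterodimers. All 4 were lower in TACI long than in control cells, against 25.9% of all tested genes. PSMG4 had 14.0, 13.8 and 12.4 CPM in TACI short cells, 9.59, 9.23 and 9.73 CPM in TACI long cells, and 17.0, 16.6 and 15.4 CPM in control cells. Its groups were separate, 1.71-fold lower in TACI long cells (log2 fold change −0.78 ± 0.07, adjusted p = 3.74e-09) and 1.33-fold lower in TACI short cells (−0.41 ± 0.07, adjusted p = 2.30e-05). PSMG3, its partner, had 34.0, 30.5 and 32.9 CPM in TACI short cells, 24.8, 23.1 and 23.9 CPM in TACI long cells, and 34.5, 32.0 and 34.2 CPM in control cells. The TACI long libraries stood alone, 1.40-fold below control (−0.49 ± 0.06, adjusted p = 2.90e-07), while TACI short and control libraries overlapped (−0.17 ± 0.06, adjusted p = 0.0125; 0.110 without TACI short replicate 2, 0.368 without TACI short replicates 2 and 3, 0.410 with library totals alone). PSMG1 had 71.6, 65.7 and 69.8 CPM in TACI short cells, 79.6, 78.8 and 79.8 CPM in TACI long cells, and 96.2, 94.2 and 91.7 CPM in control cells, and fell in TACI short cells by 0.57 ± 0.05 and in TACI long cells by 0.24 ± 0.05 on the log2 scale (adjusted p = 5.12e-10 and 0.000194). PSMG2, the partner of PSMG1, was 0.25 ± 0.05 lower in TACI long cells (adjusted p = 0.000115) and at −0.11 ± 0.05 in TACI short cells (adjusted p = 0.0502). That value lies at the threshold: PSMG2 was not called in 10 of 19 alternatives and was called lower in the rest. The replicate number as a block called it (−0.11, adjusted p = 0.0402), as did DESeq2, DESeq2 size factors and the compared groups alone. So did the analyses without TACI short replicate 1 or 3, TACI long replicate 1 or 3, or control replicate 3 (adjusted p = 0.0236 to 0.0480).

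PSMA8 and PSMB11 fell below the filter. PSMA8, an alpha subunit of the testis, had 0.0675, 0.0992 and 0.0200 CPM in TACI short cells, 0.0945, 0.132 and 0.0927 CPM in TACI long cells, and 0.0870, 0.138 and 0.193 CPM in control cells. PSMB11, the catalytic subunit of the thymus, had 0 counts in all TACI short and TACI long libraries and 2 counts over the 3 control libraries; 0 counts over a group allow a level of up to 0.0222 CPM in TACI short and 0.0229 CPM in TACI long cells (3 counts of the group total, counting error only). Neither gene was tested for a difference between groups.

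Between TACI long and control cells the proteasome genes were close together. Of the 46 tested genes, 9 were higher and 14 lower, or 19.6% and 30.4%, against 25.2% and 25.9% of all tested genes, and 51.1% of all tested genes were called in either direction. Without overlap in CPM, 11 were higher and 18 lower, against 30.1% and 30.6% of all tested genes. Their median log2 fold change was −0.03, against −0.00 over all tested genes. No catalytic immunoproteasome gene was among those called by edgeR: the log2 fold changes were −0.03 ± 0.05 for PSMB8, −0.08 ± 0.06 for PSMB9 and 0.06 ± 0.05 for PSMB10 (adjusted p = 0.713, 0.274 and 0.326). PSME1 was at −0.01 ± 0.05 (adjusted p = 0.869), and PSME2 fell by 0.16 ± 0.04 on the log2 scale without overlap (adjusted p = 0.00306). The constitutive counterparts and PSME3 were not called except for PSMB6, with 0.03 ± 0.05 for PSMB5, −0.01 ± 0.04 for PSMB7 and −0.06 ± 0.04 for PSME3 (adjusted p = 0.651, 0.829 and 0.259). The remaining genes not called were PSMA2, PSMA3, PSMA5, PSMB3, PSMB4, PSMC1, PSMC2, PSMC5, PSMC6, PSMD1, PSMD2, PSMD4, PSMD8, PSMD13, PSMD14 and PSMF1, all between −0.10 and 0.10 on the log2 scale. Of these, PSMA3 and PSMC1 were called lower and PSMB4 and PSMD2 higher with library totals alone. The same calls came with the compared groups alone (adjusted p = 0.0234, 0.0276, 0.0129 and 0.0406). Without TACI short replicates 2 and 3, the log2 fold changes were −0.08 for PSMA3, −0.09 for PSMC1, 0.10 for PSMB4 and 0.07 for PSMD2.

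Of the 31 constitutive subunits, 5 were higher and 9 lower in TACI long cells. All tested genes had 25.2% higher and 25.9% lower, so the share lower is near that of all genes. The rises were PSMA6 at 0.24 ± 0.06, PSMC3 at 0.21 ± 0.04, PSMA7 at 0.20 ± 0.05, PSMB6 at 0.17 ± 0.06 and PSMA4 at 0.12 ± 0.04 on the log2 scale (adjusted p = 0.00124, 0.000326, 0.00137, 0.0238 and 0.0334). The largest fall among them was that of PSMD3, a subunit of the lid, with 352, 341 and 354 CPM in TACI short cells, 383, 389 and 392 CPM in TACI long cells, and 473, 441 and 441 CPM in control cells. It was 0.22 ± 0.04 lower in TACI long cells (adjusted p = 0.000257), and all 3 groups were separate. Many calls of this comparison are near the threshold: over all 46 tested proteasome genes, 13 of 23 held in each of 19 alternative analyses. Among the called constitutive subunits, only PSMA6, PSMA7, PSMB2, PSMC3 and PSMD3 held in all. PSMA1, PSMA4, PSMB1, PSMB6, PSMC4, PSMD6, PSMD7, PSMD11 and PSMD12 lost their calls without at least 1 library, as did the chaperone PSMD9. The number lower among the 46 genes fell to 7 without control replicate 1 and 8 without TACI long replicate 2. It was 9 without control replicate 3, TACI long replicate 1 or TACI long replicate 3.

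TACI short against TACI long cells resembled the comparison with control, with which it shares the TACI short libraries. Of the 46 genes, 36 were lower and 6 higher, against 33.6% and 35.2% of all tested genes, and 68.8% of all tested genes were called in either direction. In CPM, 32 were lower without overlap and 8 higher, against 27.8% and 43.8% of all tested genes. The median log2 fold change was −0.33 over the proteasome genes and 0.05 over all tested genes. PSMB9 was 1.73-fold higher in TACI short cells (log2 fold change 0.79 ± 0.05, adjusted p = 8.77e-12), PSMB8 1.34-fold (0.42 ± 0.05, adjusted p = 4.57e-08) and PSME1 1.11-fold (0.16 ± 0.05, adjusted p = 0.00615; 0.0675 without TACI long replicate 2 and 0.0743 without TACI long replicate 3). The other 3 rises were the chaperones PSMG4 at 0.36 ± 0.07, PSMG3 at 0.31 ± 0.06 and PSMG2 at 0.14 ± 0.05 (adjusted p = 0.000112, 6.78e-05 and 0.0117), the last lost without TACI long replicate 1 (0.0616), TACI long replicate 3 (0.178) or control replicate 2 (0.0519).

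The largest falls in TACI short against TACI long cells were those of PSME4, 1.84-fold (log2 fold change −0.88 ± 0.04, adjusted p = 6.63e-15), PSMC3, 1.79-fold (−0.84 ± 0.04, adjusted p = 8.25e-14), PSMD5, 1.77-fold (−0.82 ± 0.05, adjusted p = 3.03e-13) and PSMA7, 1.72-fold (−0.79 ± 0.05, adjusted p = 3.00e-12). Each of these genes was lower in TACI short and higher in TACI long cells than in control cells. The counterparts of the immunoproteasome genes and PSME3 fell as well. PSMB5 fell by 0.58 ± 0.05, PSMB6 by 0.37 ± 0.06, PSMB7 by 0.19 ± 0.04 and PSME3 by 0.72 ± 0.04 on the log2 scale (adjusted p = 1.80e-10, 1.78e-05, 0.000343 and 4.87e-13). The call of PSMB7, whose groups overlapped, was lost with library totals alone (−0.06, adjusted p = 0.0805). PSMB10 and PSME2 were not called, at −0.10 ± 0.05 and 0.03 ± 0.04 (adjusted p = 0.0937 and 0.575). PSMB10 was called lower without TACI short replicate 1 (−0.13, adjusted p = 0.0242) and stood at 0.03 with library totals alone, and PSME2 was called higher with library totals alone (0.16, adjusted p = 0.000223) and with upper-quartile factors (0.12, adjusted p = 0.00416). PSMA1 and PSMD10 were not called either, at 0.09 ± 0.05 and −0.12 ± 0.06 (adjusted p = 0.101 and 0.102). PSMA1, whose TACI short libraries lay above the TACI long ones in CPM, was called higher with library totals alone (0.22, adjusted p = 6.49e-05), without TACI short replicate 2 (0.13, adjusted p = 0.00719) and without TACI short replicates 2 and 3 (0.14, adjusted p = 0.0154). PSMD10 was called lower without TACI short replicate 1 (−0.21, adjusted p = 0.000566), with the replicate number as a block (−0.13, adjusted p = 0.0295) and without the filter (−0.14, adjusted p = 0.0283).

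**Figure D4:**
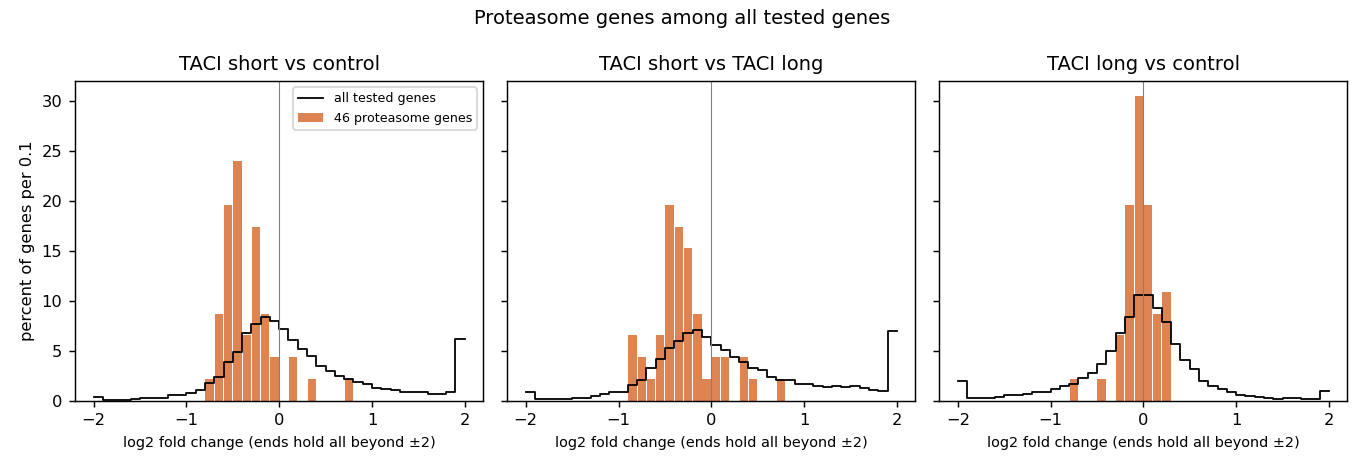
Share of genes in percent per 0.1 of log2 fold change (vertical axis) against fitted log2 fold change (horizontal axis), for the 46 tested proteasome genes (bars) and all 16672 tested genes (line) in the 3 comparisons. The bars centre near −0.41 in TACI short vs control and −0.33 in TACI short vs TACI long, and near −0.03 in TACI long vs control; the end bins hold all genes beyond 2.

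Of 9 further proteasome genes without a PSM symbol, 7 were lower and 2 higher in TACI short than in control cells, against 31.1% and 31.5% of all tested genes, with a median log2 fold change of −0.28 against 0.03 over all tested genes. With library totals alone 6 were lower, since UBE3C lost its call (−0.06, adjusted p = 0.160). UCHL5, a deubiquitinase of the 19S particle, had 105, 105 and 108 CPM in TACI short cells, 146, 146 and 142 CPM in TACI long cells, and 153, 162 and 160 CPM in control cells. It fell 1.64-fold in TACI short cells (log2 fold change −0.71 ± 0.04, adjusted p = 8.17e-13). Its anchor, the ubiquitin receptor ADRM1, was at −0.57 ± 0.05 and POMP, the maturation protein that is also needed for the immunoproteasome, at −0.56 ± 0.05 (adjusted p = 3.47e-10 and 4.03e-10). AKIRIN2, which helps import proteasomes into the nucleus, and PAAF1, a binder of the 19S ATPases, rose, by 0.22 ± 0.04 and 0.29 ± 0.05 (adjusted p = 6.76e-05 and 5.35e-05). In TACI long cells 1 of the 9 was higher and 5 were lower than in control cells, against 25.2% and 25.9% of all tested genes. The 5 became 3 without control replicate 1, control replicate 2 or TACI long replicate 1. They became 2 without control replicate 3, TACI long replicate 2 or TACI long replicate 3 and without the filter. UCHL5, ADRM1 and AKIRIN2 lost their calls there. SEM1 was called higher as well with library totals alone (0.10, adjusted p = 0.0444). TACI short cells had 1 higher and 6 lower than TACI long cells, against 35.2% and 33.6% of all tested genes. With library totals alone 3 were higher. PAAF1 and ECPAS were the genes added.

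Among 9 genes that control the transcription of constitutive subunits, 6 rose and 3 fell in TACI short against control cells, where 31.5% of all tested genes were higher, 31.1% lower and 62.6% either, with a median log2 fold change of 0.27. Without TACI short replicates 2 and 3, the log2 fold change of MAFF, among the 6 that rose, was 0.16. NFE2L3, of the family of NFE2L1, the main activator of these subunits when proteasomes are inhibited, had 40.6, 38.5 and 39.2 CPM in TACI short cells, 8.72, 8.88 and 9.13 CPM in TACI long cells, and 4.78, 4.09 and 4.05 CPM in control cells. Its groups were widely apart, 8.37-fold above control in TACI short cells (log2 fold change 3.07 ± 0.07, adjusted p = 8.05e-20) and 2.07-fold in TACI long cells (1.05 ± 0.08, adjusted p = 7.02e-11). NFE2L1 itself had 255, 267 and 252 CPM in TACI short cells, 138, 150 and 149 CPM in TACI long cells, and 166, 165 and 160 CPM in control cells, a rise of 0.53 ± 0.04 in TACI short and a fall of 0.16 ± 0.04 in TACI long cells (adjusted p = 1.41e-10 and 0.00227; 0.0653 for TACI long cells without TACI long replicate 1). NFE2L2 rose by 0.85 ± 0.05 in TACI short cells (adjusted p = 1.96e-13). The RNA of the proteins that release and process NFE2L1 fell: that of DDI2, the protease that cleaves it, by 0.65 ± 0.05, VCP, which extracts it from the membrane, by 0.48 ± 0.04, and NGLY1, which removes its glycans, by 0.20 ± 0.04 (adjusted p = 1.33e-10, 7.93e-10 and 0.000248). Only the fall of NGLY1 was lost with library totals alone (−0.07, adjusted p = 0.0551). In TACI long cells DDI2 and VCP were higher than in control cells, at 0.19 ± 0.05 and 0.21 ± 0.04 (adjusted p = 0.00304 and 0.000160).

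Of 10 regulators of immunoproteasome genes, 6 rose and 2 fell in TACI short against control cells, against 31.5% and 31.1% of all tested genes, with a median of 0.39. In TACI long against control cells 1 rose and 7 fell, against 25.2% and 25.9% of all tested genes, with a median of −0.32. Of those 7, RELA lost its call without any 1 of the TACI long or control libraries (adjusted p = 0.0778 to 0.254). IRF9 lost its call without TACI long replicate 3 (0.0577), without control replicate 2 (0.0973) and with DESeq2 (0.0628). IRF1, which drives PSMB9 and TAP1, had 49.8, 51.0 and 48.2 CPM in TACI short cells, 25.9, 26.3 and 26.4 CPM in TACI long cells, and 27.1, 27.9 and 27.8 CPM in control cells. TACI short libraries stood apart, with a log2 fold change of 0.72 ± 0.05 against control (adjusted p = 3.85e-12). The NF-kB subunits NFKB2 and RELB rose by 1.88 ± 0.05 and 1.40 ± 0.05 (adjusted p = 3.01e-19 and 3.18e-17). NLRC5, the transactivator of MHC class I genes and of PSMB9, had 27.7, 29.5 and 28.5 CPM in TACI short cells, 12.7, 14.0 and 13.4 CPM in TACI long cells, and 33.1, 31.1 and 32.2 CPM in control cells. It was lower in both TACI lines, 1.23-fold in TACI short (log2 fold change −0.30 ± 0.05, adjusted p = 1.73e-05) and further in TACI long cells (−1.26 ± 0.05, adjusted p = 2.97e-15). The part of any of these regulators in the changes of PSMB9 and the other proteasome genes was not tested.

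Of 6 class I genes that neighbour the immunoproteasome genes or receive their peptides, 3 rose and 1 fell in TACI short against control cells, with a median of 0.31; the 4 of 6 called stand beside 62.6% of all tested genes. TAP1, across the shared start region from PSMB9, had 81.9, 80.5 and 82.8 CPM in TACI short cells, 33.5, 31.3 and 34.4 CPM in TACI long cells, and 41.7, 42.5 and 42.9 CPM in control cells. Its log2 fold change in TACI short cells was 0.82 ± 0.05 (adjusted p = 9.70e-13), beside 0.71 for PSMB9, and in TACI long cells −0.36 ± 0.05 (adjusted p = 2.24e-06), beside −0.08 for PSMB9. TAP2, whose start lies on the other side of PSMB8, had 35.6, 37.4 and 34.8 CPM in TACI short cells, 26.0, 27.7 and 25.4 CPM in TACI long cells, and 33.8, 36.5 and 36.6 CPM in control cells. TACI short and control libraries overlapped, and the fitted log2 fold change was −0.12 ± 0.05 (adjusted p = 0.0378), with 0.01 under library totals alone (adjusted p = 0.870) and adjusted p = 0.0802, 0.109, 0.0597 and 0.154 without control replicate 2, control replicate 3, TACI short replicate 2 and TACI short replicate 3. Without both TACI short replicates 2 and 3 the log2 fold change of TAP2 was −0.09. TAPBP, the tapasin gene, and B2M, the light chain of class I molecules, rose by 0.58 ± 0.04 and 0.57 ± 0.04 in TACI short cells (adjusted p = 1.17e-10 and 8.23e-11). The peptide trimming enzymes ERAP1 and ERAP2 were not called there (0.05 ± 0.04 and −0.01 ± 0.05, adjusted p = 0.285 and 0.875), but both were called higher with library totals alone (0.18 and 0.12, adjusted p = 0.00113 and 0.0153).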

How the data were processed

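RNA of 9 libraries was compared, 3 each of TACI short, TACI long and control cells, grouped by their titles. Per the labels' protocols, polyadenylated RNA of sorted cells (the sorting gate is not given in the sources used here) went into Nextera XT libraries, which keep no strand, with no molecular identifiers. The authors deposited raw counts per Ensembl gene without normalization. Per the submitters' processing notes, FastQC, STAR 2.4.0h, HTSeq and build hg38 were used; per the file headers, the column layout is that of featureCounts. Which annotation release and strand setting were used is not given in the sources used here.

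Symbols and gene types came from GENCODE release 29, which matched 56898 of 57500 genes. The proteasome genes, the further lists and the tests were chosen with earlier results of these data known. A gene left out of the list of immunoproteasome regulators is not reported here. CPM are counts scaled to the library total. Genes passing filterByExpr (minimum count 10, minimum total 15) were fitted over all 9 libraries with edgeR 4.0.16 in R 4.3.3 (TMM factors, robust quasi-likelihood test, common biological coefficient of variation 0.0792, 6 residual degrees of freedom), adjusted by Benjamini-Hochberg over 16672 genes and called under 0.05. A standard error is the absolute log2 fold change over the square root of F. Ratios of counts per kilobase of exon were compared by exact two-sided permutation tests.

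Alternatives were 3 other scalings, DESeq2 1.42.0, limma-voom (limma 3.58.1), 2 other filters, the compared groups alone, the replicate number as a block, each library left out, and TACI short replicates 2 and 3 left out. Replicate numbers in the titles are shared by the groups: after removal of group means, libraries of the same number correlated at 0.434, 0.213 and 0.177 between TACI short and control, at −0.272, 0.113 and −0.263 between TACI short and TACI long, and at −0.124, 0.0653 and −0.109 between TACI long and control. By a limit of 0.1, libraries of the same number correlated throughout only between TACI short and control. Libraries of different numbers correlated at −0.389 to 0.232 in that comparison, a range that holds 0.213 and 0.177. They correlated at −0.307 to 0.346 between TACI short and TACI long and at −0.13 to 0.209 between TACI long and control. Whether the numbers mark pairs is therefore not settled. No replicates agreed within sampling noise (chi-square per degree of freedom 2.31 to 16.2). Genes named in full are the 5 immunoproteasome and PA28 genes, PSMB5, PSMB6, PSMB7 and PSME3, the 4 largest called rises and falls of a comparison, every gene not called or under the filter, and up to 3 called genes of a list. Of 48 genes, 23 share exonic bases with another gene, 7 of them at least 20% (at most 75.8%, in PSMC1), where counts are uncertain; 32 PSM pseudogenes averaged at most 1.72 CPM. Promoter windows came from RefSeq (GRCh38.p14); 42 of 48 genes matched.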

Additional observations from a re-analysis of the deposited data

How the results depend on the processing

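The number of proteasome genes lower in TACI long than in control cells moved by over 1.5 times: 14 in the edgeR analysis, 9 without the filter on low counts, and 7 to 15 when single libraries were left out. Leaving out single libraries gave 6 to 11 genes higher in that comparison, 38 to 40 lower and 2 to 4 higher in TACI short against control, and 35 to 38 lower and 4 to 7 higher in TACI short against TACI long. With the replicate number as a block, the counts lower and higher were 40 and 4 for TACI short against control, 37 and 6 for TACI short against TACI long, and 14 and 10 for TACI long against control. Without TACI short replicates 2 and 3 they were 35 and 4, 36 and 7, and 16 and 11. Of the calls, 35 of 42, 36 of 42 and 13 of 23 held in all 19 alternatives. No called proteasome gene or ratio changed its sign in those run. Among the values of single named genes, 814 kept their side of the threshold, 19 lost their call and 3 gained one. The 814 include genes not called whose sign changed between settings, such as PSMB10 in TACI short against control cells. With library totals alone, PSMA6, PSMB6, PSMD14, PSME2, PSMF1 and PSMG3 lost and PSMD10 gained a call in TACI short against control cells. With the same scaling PSMB7, PSMC1, PSMD13 and PSMD14 lost and PSMA1 and PSME2 gained one in TACI short against TACI long cells. The replicate block gained PSMD10 and PSMG2 in TACI short against control cells. Of the further proteasome genes, 5 were lower in TACI long than in control cells, and 2 without the filter or without 1 of 3 single libraries. Depth limited the statements on PSMA8 and PSMB11.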
